A study of Mus musculus with 8 samples.

Results

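The CCN family of secreted matricellular proteins was examined in whole primary mammary tumours with and without suppression of miR-21 activity. Its members were taken by name, as the rows of Ccn1 (formerly Cyr61), Ccn2 (formerly Ctgf), Ccn3 (formerly Nov), Ccn4 (formerly Wisp1) and Ccn5 (formerly Wisp2), which are 5 of the 27179 genes in the table. The family was chosen by a comparison already known from these tumours, the difference in its RNA counts between miR-21-KD and VC tumours, so those differences are given as a description, with no p-value. The sixth gene of the family, Ccn6 (formerly Wisp3), was not among the members.

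The study injected the murine mammary carcinoma line 4T1.13 into the mammary fat pad of female BALB/c mice aged 7 to 8 weeks, and tumours were recovered as those with miR-21-KD began to regress, which the labels place at 14 days and the methods at an earlier day. The 4 miR-21-KD tumours came from cells that carry a lentiviral vector (miArrest, pEZX-AM03) whose H1 promoter drives an RNA that binds and sequesters mature miR-21, and the 4 VC (vector control) tumours came from cells with a scrambled RNA in the same vector. Both vectors also carry mCherry and hygromycin B resistance, and each line was a pool of 6 clones, so all tumours of a group share 1 pool. The hosts were immunocompetent and miR-21 was suppressed only in the injected cells. Total RNA of the whole tumour was sequenced, and reads were counted per gene, with 12134849 to 13592695 counts per tumour. Tumours of the groups lay on separate sides of 0 on the first principal component, which held 67.5% of the variance, with miR-21-KD replicate 2 nearest to the VC group. The precursor gene Mir21a had 0 counts in all 8 tumours, which does not bear on the suppression, since the vector sequesters mature miR-21 and this RNA count does not measure it.

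CCN proteins are built from shared modules, namely an insulin-like growth factor binding module, a von Willebrand type C module, a thrombospondin type 1 module and a C-terminal cystine knot, the last of which CCN5 lacks. They bind integrins, heparan sulphate proteoglycans and growth factors in the matrix and adjust how cells adhere, migrate and respond to those factors. Ccn1 and Ccn2 are immediate early genes that respond to YAP/TAZ, to TGF-beta and to mechanical load, Ccn3 often opposes CCN2 and slows proliferation, and Ccn4 and Ccn5 were first described as genes induced by Wnt signalling. In mammary tumours these genes are made by carcinoma cells as well as by fibroblasts and vessels.

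Since miR-21 acts on RNAs that hold a match to its seed, the sequence suppressed in the miR-21-KD line and the matches in the members' 3′ UTRs are shown first. The mature sequence was taken from RefSeq (GRCm38.p6) and is encoded on the minus strand at chr11:86584120-86584141. Capitals mark the seed, bases 2 to 8.
miR-21a-5p: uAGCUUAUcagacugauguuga

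The 3′ UTR of 1 coding transcript per gene in GENCODE M21 (GRCm38, the build that the labels call mm10) was searched on the mRNA strand for TAAGCT, the match to bases 2 to 7. A match was called an 8-mer where it lay within ATAAGCTA, a 7-mer where it was extended on 1 side only (ATAAGCT or TAAGCTA), and a 6-mer otherwise, so that every match was counted once. Ccn4, with the longest 3′ UTR (3747 bases), held 2 8-mers and 1 7-mer. Ccn3 (1534 bases) and Ccn5 (709 bases) each held 1 6-mer, and Ccn1 (690 bases) and Ccn2 (1067 bases) held none. The matches lie on the plus strand within chr15:66919866-66919893, chr15:66920687-66920714 and chr15:66921630-66921657 for Ccn4, chr15:54752675-54752702 for Ccn3 and chr2:163832713-163832740 for Ccn5. Capitals mark the match.
Ccn4 8-mer: ggacacaggaATAAGCTAttattttacc
Ccn4 7-mer: taaagagtttgTAAGCTAaagaaatatt
Ccn4 8-mer: cataggagccATAAGCTAgggtcttccc
Ccn3 6-mer: tagaatcaaggTAAGCTcaggatatggc
Ccn5 6-mer: acctttaaagcTAAGCTgtactgggcaa

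Of the 6946 tested genes whose 3′ UTR was between 690 and 3747 bases long, 13.3% held a 7-mer or 8-mer and 30.6% held a match of any kind. The 3′ UTR of Ccn4 is at the upper end of that range and has more places for a match, so these shares are not matched to its length. A match describes the letters only and is not a shown target site.

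All 5 members passed the filter on low counts and were part of the fit over 14382 genes. In that fit 3 of the 5 had an adjusted p under 0.05 from edgeR, against 39.1% of all tested genes, with 2 higher in miR-21-KD tumours (Ccn2 and Ccn3, against 19.6% of all genes) and 1 lower (Ccn5, against 19.5%). The same 3 members had no overlap between the groups, which held for 35.2% of all tested genes. Because the family was taken up with this contrast known, nothing is read from these counts. Values are given as CPM (counts scaled to a common library size, with the TMM factor applied), in the order of replicates 1 to 4.

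**Figure D1:**
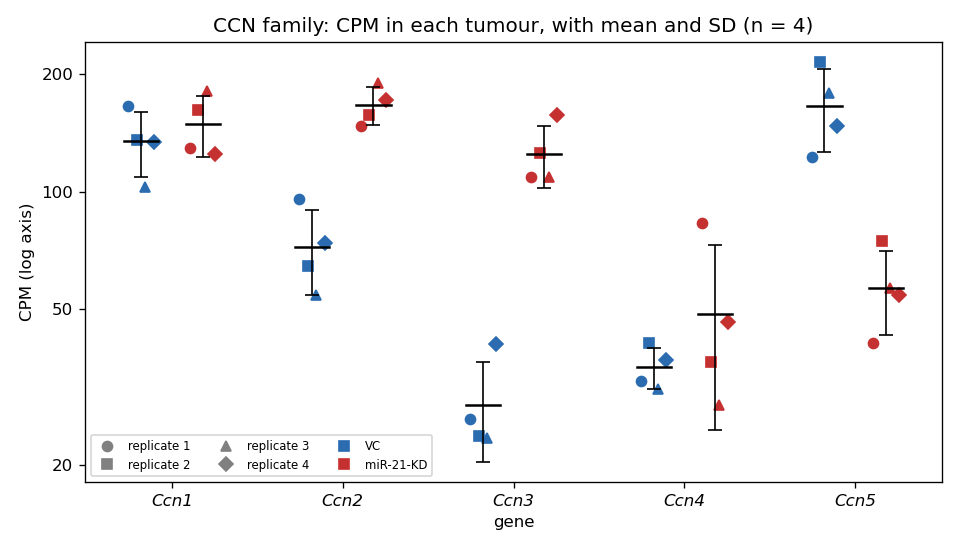
CPM of each member (log axis) in the 4 VC (blue) and 4 miR-21-KD tumours (red), with the replicate number as the symbol, the mean as a bar and the SD as error bars. Ccn2 and Ccn3 lie higher and Ccn5 lower in all miR-21-KD tumours than in any VC tumour, whereas the groups overlap for Ccn1 and Ccn4.

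Ccn3 (Entrez 18133, chromosome 15, 54745910 to 54753762), which encodes a matricellular regulator of proliferation and adhesion, had 26.3, 23.8, 23.5 and 40.7 CPM in the VC tumours and 109, 125, 109 and 157 CPM in the miR-21-KD tumours. The lowest miR-21-KD tumour lay well above the highest VC tumour, and replicate 4 was the highest tumour of both groups. The means were 28.6 ± 8.19 and 125 ± 22.5 CPM (SD, n = 4 each), a 4.37-fold higher level in miR-21-KD tumours and a log2 fold change of 2.13 (standard error 0.21). Of all tested genes, 97.4% had a smaller log2 fold change in absolute size. Without VC replicate 4 the log2 fold change was 2.34, and it was between 2.001 and 2.341 over all 15 alternatives.

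Ccn2 (Entrez 14219, chromosome 10, 24595442 to 24598683), the connective tissue growth factor that acts with TGF-beta in matrix production, had 95.9, 64.4, 54.3 and 73.7 CPM in the VC tumours and 147, 157, 189 and 172 CPM in the miR-21-KD tumours. Every miR-21-KD tumour was again above every VC tumour, with the smallest distance between miR-21-KD replicate 1 and VC replicate 1. The mean went from 72.1 ± 17.7 to 166 ± 18.3 CPM (SD, n = 4 each), which is 2.31-fold higher, with a log2 fold change of 1.20 (standard error 0.17) and a range of 1.08 to 1.38 over the alternatives.

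Ccn1 (Entrez 16007, chromosome 3, 145646971 to 145649985) encodes the other immediate early member, an integrin ligand that acts on adhesion and vessel growth. It had 165, 135, 103 and 134 CPM in the VC tumours and 129, 162, 180.2 and 125 CPM in the miR-21-KD tumours, so that the groups overlapped over most of their range. The means of 134 ± 25.5 and 149 ± 26.6 CPM (SD, n = 4 each) gave a log2 fold change of 0.15 (standard error 0.17), which is smaller than the spread between tumours. The ratio of Ccn1 to Ccn2 counts within a tumour, which needs no scaling of libraries, was 1.72 to 2.10 in VC tumours, and 0.727 to 1.03 in those with miR-21-KD.

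Ccn1 and Ccn2 nevertheless varied together among tumours of the same group. VC replicate 1 was the highest and VC replicate 3 the lowest VC tumour for both genes, and miR-21-KD replicate 3 was the highest miR-21-KD tumour for both. After the group means were taken off, Pearson's r between their log2 CPM values was 0.79 over the 8 tumours, the highest of the 10 pairs of members, and the other 9 lay between -0.48 and 0.27. These values share libraries and their scaling and are given as a description.

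Ccn5 (Entrez 22403, chromosome 2, 163820752 to 163833146), which encodes the member without the cystine knot and is known for restraining smooth muscle and epithelial cell growth and invasion, went the other way. It had 122, 214, 179 and 147 CPM in the VC tumours and 41.1, 74.8, 56.9 and 54.6 CPM in the miR-21-KD tumours, and the highest miR-21-KD tumour remained below the lowest VC tumour. Replicate 2 was the highest and replicate 1 the lowest in both groups. The mean was 165 ± 39.6 CPM in VC tumours, and 56.9 ± 13.8 CPM in those with miR-21-KD (SD, n = 4 each), so the level was 2.91-fold higher in VC, with a log2 fold change of -1.54 (standard error 0.22, range -1.71 to -1.40 over the alternatives). Of all tested genes, 93.0% had a smaller log2 fold change in absolute size. That share was 87.4% for Ccn2, 57.0% for Ccn4 and 22.9% for Ccn1. The family was chosen by this contrast, so nothing is read from the shares.

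Ccn4 (Entrez 22402, chromosome 15, 66891369 to 66923201), a member first found as a Wnt-induced gene, had 32.9, 41.0, 31.4 and 37.1 CPM in the VC tumours and 83.2, 36.8, 28.5 and 46.4 CPM in the miR-21-KD tumours. Replicate 1 stood above the rest of the miR-21-KD group, and the lowest miR-21-KD tumour lay below every VC tumour. The means were 35.6 ± 4.35 and 48.7 ± 24.1 CPM (SD, n = 4 each), with a log2 fold change of 0.45 (standard error 0.30). Without miR-21-KD replicate 1 this fold change was 0.07. The coefficient of variation was 12.2% in VC tumours, and 49.5% in those with miR-21-KD, and the within-group SD of its log2 CPM (0.48) was the largest of the members, against a median of 0.23 over all tested genes. Ccn6 (Entrez 327743) had 6, 5, 3 and 1 counts in VC and 2, 3, 1 and 1 counts in miR-21-KD tumours and was not tested. At this depth 3 counts, the limit that a count of 0 allows, are 0.221 to 0.245 CPM, which covers counting error only, and no statement is made on a difference in Ccn6.

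**Figure D2:**
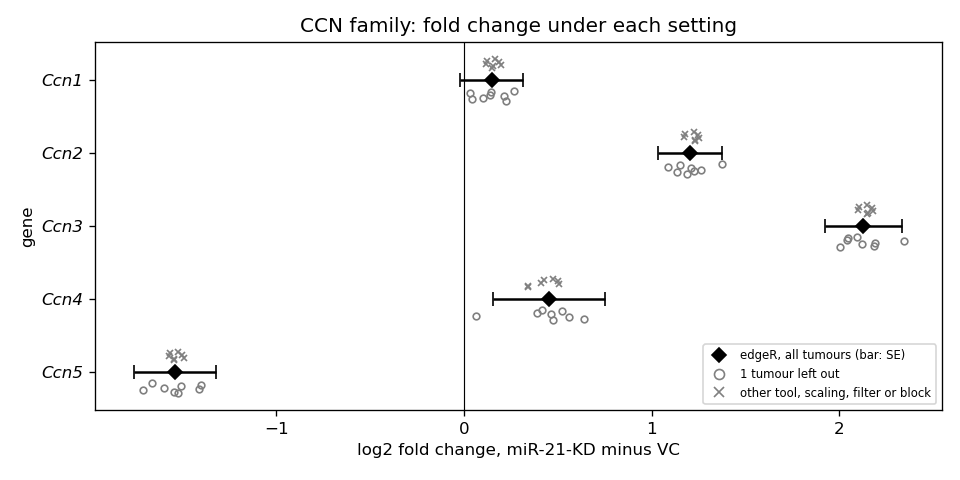
Log2 fold change of each member, miR-21-KD minus VC, with its standard error (black), with 1 tumour left out (open circles) and with another tool, scaling, filter or replicate block (crosses). Ccn3 lies between 2.001 and 2.341 and Ccn5 between -1.71 and -1.40 over the settings, while Ccn4 moves from 0.45 to 0.07 when miR-21-KD replicate 1 is left out.

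The 4 tumours of a group are labelled as separate samples that share a pool of cells and a day of recovery, and p-values measure the spread between these samples. Whole tumours were sequenced, so that fewer cells of a type and less RNA per cell cannot be told apart for any member.

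The make-up of the family differed between the groups while its sum overlapped. For comparison between genes, CPM was divided by the length of the gene's exons in kilobases (GENCODE M21). The summed level of the 5 members was 177 to 216 CPM per kilobase in VC tumours, and 189 to 228 in those with miR-21-KD. In VC tumours Ccn5 led with 86.0 ± 20.6 CPM per kilobase, ahead of Ccn1 with 66.5 ± 12.6, whose range overlapped it. Ccn2 followed with 25.2 ± 6.20, Ccn3 with 9.96 ± 2.85 and Ccn4 with 6.40 ± 0.782, each below the range of the gene before it (SD, n = 4 each). In miR-21-KD tumours Ccn1 led with 73.7 ± 13.2 CPM per kilobase, and Ccn2 with 58.1 ± 6.39, Ccn3 with 43.5 ± 7.83 and Ccn5 with 29.6 ± 7.20 followed. The ranges of Ccn1 and Ccn2, of Ccn2 and Ccn3 and of Ccn3 and Ccn5 overlapped, and Ccn4 with 8.75 ± 4.33 lay below the range of Ccn5 (SD, n = 4 each). With the length of a single transcript in place of all exons the order was the same, but Ccn2 and Ccn3 no longer overlapped in miR-21-KD tumours.

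As a share of the family's level per length, Ccn5 held 32.8% to 52.6% in VC tumours, and 11.3% to 17.3% in those with miR-21-KD. Ccn3 held 3.83% to 7.49% and 16.7% to 25.6%, and Ccn2 held 10.4% to 17.3% and 24.5% to 29.0%. The shares of Ccn1, at 28.9% to 42.2% and 29.0% to 39.1%, overlapped almost completely. The ratio of Ccn3 to Ccn5 counts within a tumour was 0.111 to 0.277 in VC tumours, and 1.67 to 2.87 in those with miR-21-KD, so that the gene with the fewer reads of the pair was Ccn3 in every VC tumour and Ccn5 in every miR-21-KD tumour.

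**Figure D3:**
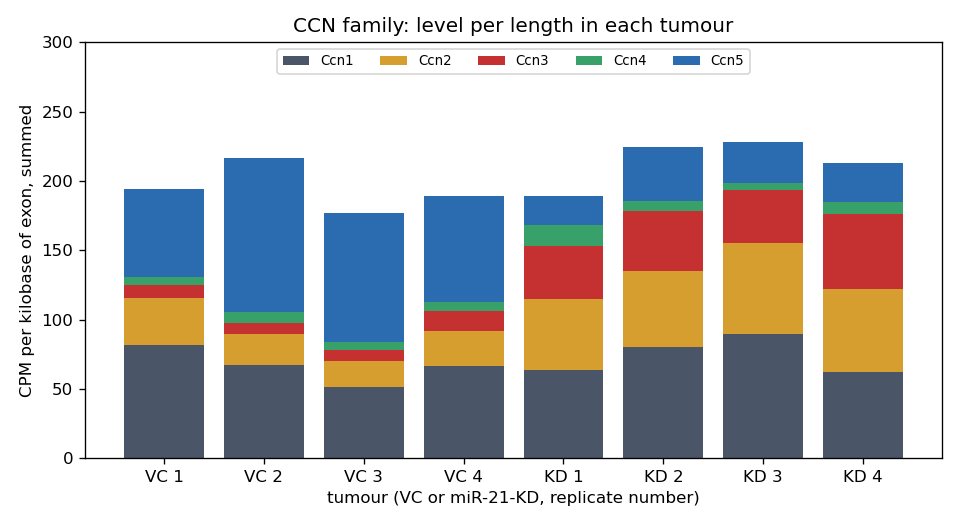
Summed level of the 5 members in CPM per kilobase of exon in each tumour, with each member as a segment of the bar. The totals of the groups overlap (177 to 216 in VC, 189 to 228 in miR-21-KD), while the segment of Ccn5 is smaller and those of Ccn2 and Ccn3 are larger in every miR-21-KD tumour.

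The members are similar in sequence, so it was asked whether reads could have been counted on the wrong one. Their coding sequences were 58.6% to 66.4% identical by pairwise global alignment. The longest run of bases that the transcripts of any pair shared was 28 bases, an AT repeat in the 3′ UTRs of Ccn2 and Ccn3. Within coding sequence the longest shared run of any pair was 18 bases, in Ccn1 and Ccn2 (minus strand, chr3:145649341-145649358, and plus strand, chr10:24595962-24595979).
Ccn1 and Ccn2 shared run: ggacggctgcggctgctg

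A read longer than these runs can therefore match only 1 member exactly within the transcripts compared, 1 per gene. Exons outside those transcripts and matches with mismatched bases were not examined. The length of the reads is not given in the sources used here. The coding sequence of Ccn5 is the shortest, with 756 bases including the stop codon, against 1047 to 1140 bases for the other 4 members, and each of the 5 has 5 exons in the transcript used.

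The members lie on 4 chromosomes, with Ccn3 and Ccn4 both on chromosome 15. Of the 50 tested genes that flank them, 5 on each side, 19 passed the threshold, a share close to the 39.1% of all tested genes, and nothing is read from it. The 10 around Ccn2, which lies between Moxd1 and Enpp1, held 5 higher and 0 lower by edgeR (0 lower at an unadjusted p under 0.05 as well), with a median log2 fold change of 0.82. Those around Ccn3 (2 higher, 3 lower, median -0.29), Ccn4 (2 and 1, median -0.06), Ccn5 (2 and 0, median 0.05, with 2 lower at an unadjusted p under 0.05) and Ccn1 (2 and 2, median 0.17) had medians closer to 0.

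The genes whose log2 CPM varied most like a member's over the 8 tumours, after the group means were taken off, were ranked by Pearson's r. For Ccn1 they were Thbs1 (0.98), Pla2g4a (0.95) and Abi1 (0.94), of which Thbs1 encodes thrombospondin 1, itself a matricellular protein. Thbs1 also shared the small difference of Ccn1 between the groups, with a log2 fold change of 0.16 (standard error 0.26). For Ccn2 they were Slc2a3 (0.94), Snx25 (0.93) and Syt5 (0.93), for Ccn3 A530032D15Rik (0.99), Taf13 (0.98) and Cd79a (0.97), for Ccn4 Ifnar1 (0.97), Elac1 (0.96) and Ube4a (0.96), and for Ccn5 Mmachc (0.99), Cdk2 (0.99) and Cstf1 (0.98). These are the highest of 14382 genes over 8 tumours that share libraries, and they are given as a description. Cd79a, a B cell receptor component, had a log2 fold change of -1.01, opposite in sign to that of Ccn3.

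Other matricellular genes form the list closest to the family in function. Of 19 tested genes, 12 had higher and 1 had lower levels after miR-21 suppression by the same threshold, with a median log2 fold change of 1.11, against 19.6% higher, 19.5% lower and a median of -0.01 over all genes. The smallest adjusted p among the higher ones belonged to Tgfbi, an integrin-binding matrix protein induced by TGF-beta, which went from 492 to 950 CPM (log2 fold change 0.95 ± 0.14, standard error, with an edgeR adjusted p of 0.00569), and to Fbln2, an elastic fibre protein (1.11, standard error 0.18, adjusted p = 0.00585). Thbs2, which encodes the anti-angiogenic thrombospondin 2, was the lower one (log2 fold change -1.04, standard error 0.22, adjusted p = 0.0104). The count of higher genes was 6, 5 and 7 without VC replicate 2, VC replicate 3 and miR-21-KD replicate 1. Over all genes it was 2826 with all tumours, 1449 without VC replicate 3 and 3290 without miR-21-KD replicate 2. Counts of this and the later lists with a tumour left out are to be read against that range. The summed level of these matricellular genes overlapped between the groups.

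The IGF-binding protein genes share their N-terminal module with the CCN proteins, and their 6 tested members held 2 higher and 2 lower genes (median 0.80). Over all tested genes, 19.6% were higher and 19.5% lower. Igfbp6 rose by 1.45 and Igfbp5 by 2.13 on the log2 scale (adjusted p = 0.00694 and 0.0202 from edgeR), and Igfbp4 and Igfbp3 fell, with log2 fold changes of -1.40 and -0.93 (adjusted p = 0.00795 and 0.0149). Igfbp5 did not pass without VC replicate 3 (adjusted p = 0.0603) or miR-21-KD replicate 4 (adjusted p = 0.0543), and 4 of these genes were higher in the fit blocked on replicate number. Their summed CPM was 3199 to 4031 in VC tumours, and 1856 to 2295 in those with miR-21-KD, since Igfbp4, which had the most reads of the list, went from 2745 to 1043 CPM.

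Of 13 tested genes for receptors of CCN proteins, 4 had higher levels after miR-21 suppression and 0 had lower ones by edgeR (median 0.39), so that 30.8% were called, against 39.1% of all tested genes. Beside Lrp6 and Itgb3, these were Itga5, the alpha chain of the fibronectin receptor (log2 fold change 0.69 ± 0.11, standard error, with an edgeR adjusted p of 0.00602), and Itgam, the alpha chain of the leukocyte integrin Mac-1 (0.98, standard error 0.20, adjusted p = 0.0101). The most counted receptor gene, Itgb1, differed by less than the spread between tumours, with 1052 and 994 CPM. The number of higher genes was 2 without VC replicate 3, and 7 without miR-21-KD replicate 2, with DESeq2 and with at least 10 counts required in every tumour. The number of lower genes was 1 with DESeq2, in the fit blocked on replicate number and without VC replicate 4, and 2 without miR-21-KD replicate 2. At an unadjusted p under 0.05, 1 receptor gene was lower, Itga6, named here after its value was seen.

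The pathways known to regulate Ccn1 and Ccn2 were described by the same counts, to be read against 19.6% higher and 19.5% lower over all tested genes. Of 20 other target genes of YAP and TAZ, the transcriptional co-activators held back by the Hippo kinases, 5 had higher and 5 lower levels after miR-21 suppression, with a median of -0.23. Their summed level was lower in every miR-21-KD tumour (1691 to 2259 CPM) than in any VC tumour (2718 to 3283 CPM), and Nt5e, which had the highest CPM of the list in VC but not in miR-21-KD tumours, went from 801 to 243 CPM. The sums of the receptor, Hippo, TGF-beta and Wnt lists overlapped between the groups. Amotl2 and F3 rose by 0.53 and 1.45 on the log2 scale (adjusted p = 0.00663 and 0.00713 from edgeR), whereas Nt5e and Asap1 fell, with log2 fold changes of -1.72 and -0.83 (adjusted p = 0.00667 and 0.00823). Without VC replicate 3 the number of higher genes was 3. The target gene Ankrd1 had 60.3 CPM in VC tumours, and 42.2 CPM in those with miR-21-KD without passing. Among 15 core genes of the Hippo pathway, 2 were higher and 5 lower (median -0.20). Wwtr1, which encodes TAZ, fell from 226 to 99.5 CPM (log2 fold change -1.18 ± 0.17, standard error, with an edgeR adjusted p of 0.00571), and the kinase gene Stk3 fell by 0.70 (adjusted p = 0.0158), while Stk4 rose by 0.54 (adjusted p = 0.0121). Mob1a rose by 0.62 (adjusted p = 0.0250) and did not pass in 5 of the 15 alternatives, each with a tumour left out. The number of higher Hippo genes was 1 without VC replicate 2, 3 or 4 or miR-21-KD replicate 1 or 3, and the number of lower ones was 2 or 3 when any 1 tumour other than VC replicate 4 or miR-21-KD replicate 2 was left out. Lats2 stands in both lists, and Igfbp3 and Tgfb2 stand in other lists as well.

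Of 16 genes of the TGF-beta pathway, 2 were higher and 6 lower, with a median of -0.02. The receptor gene Tgfbr1 fell by 0.75 (adjusted p = 0.00501 from edgeR) and Ltbp2, a latent TGF-beta binding protein, fell by 1.15 (adjusted p = 0.00523). Tgfb1 itself rose by 0.23 (adjusted p = 0.0288 from edgeR), a call lost in 7 of the 15 alternatives. The number of higher genes was 0 without VC replicate 2 or 3 or miR-21-KD replicate 3 or 4, and 1 without VC replicate 1 or 4 or miR-21-KD replicate 1, or with no filter on low counts. Of 14 tested targets of Wnt/beta-catenin signalling, 3 were higher and 4 lower, with a median of 0.59. Znrf3 and Tnfrsf19 fell, with log2 fold changes of -1.41 and -2.74 (adjusted p = 0.00501 and 0.00520 from edgeR). Rnf43 and Axin2 rose by 1.61 and 0.71 (adjusted p = 0.0332 and 0.0385) and each lost its call in 6 alternatives, and without VC replicate 2, VC replicate 3, miR-21-KD replicate 1 or miR-21-KD replicate 4 the number of higher Wnt targets was 0, whereas the blocked fit gave 5.

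**Figure D4:**
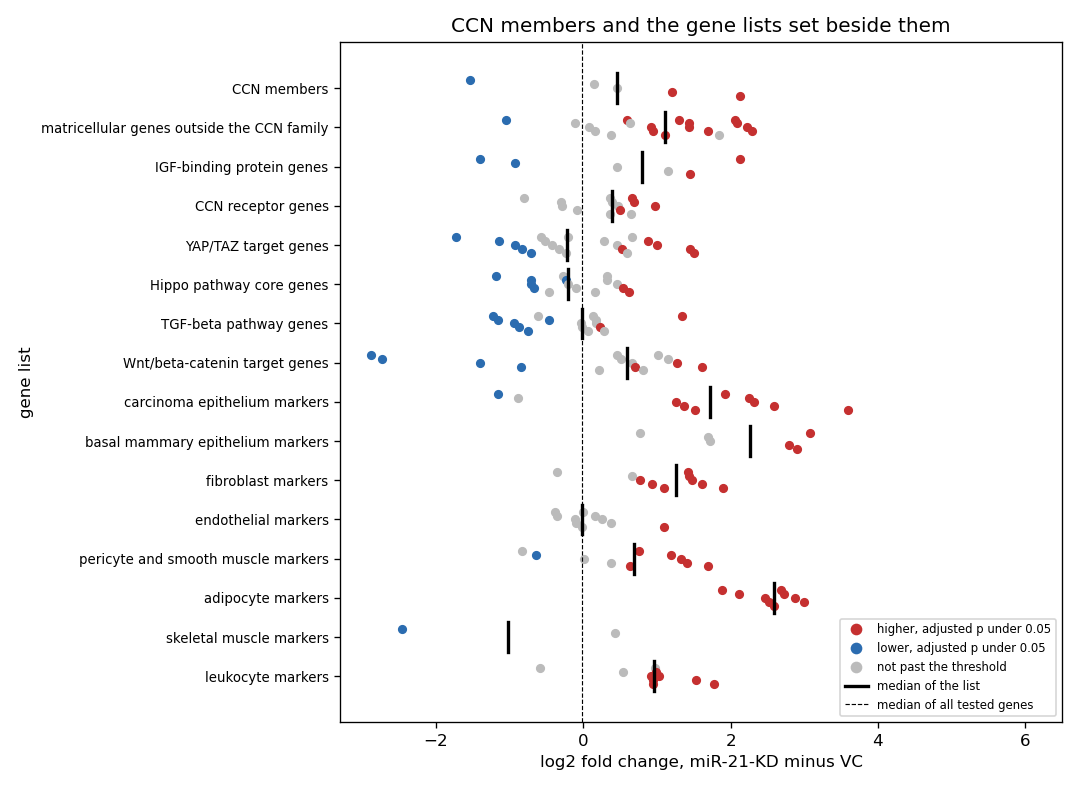
Log2 fold change, miR-21-KD minus VC, of the members and of each tested gene of the lists, in red (higher) or blue (lower) where the adjusted p was under 0.05 and in grey otherwise. Black bars give the median of each list and the dashed line that of all tested genes (-0.01), and the members spread to both sides of it from -1.54 to 2.13.

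The lists of cell type markers describe what else differed in the same whole tumours. Their counts, here and for the cell types that follow, are to be read against 19.6% higher and 19.5% lower over all tested genes. Of 10 fibroblast genes, 8 were higher in miR-21-KD tumours and 0 lower (median 1.26), led by the collagen genes Col6a3 (log2 fold change 0.93, adjusted p = 0.0115 from edgeR) and Col1a1 (1.48, adjusted p = 0.0134). Their summed level was 3476 to 8750 CPM in VC tumours, and 11389 to 24694 CPM in those with miR-21-KD, and no marker was at 0. Without VC replicate 3 the number of higher fibroblast genes was 4, while over all genes the number went from 2826 to 1449. Without miR-21-KD replicate 1 the number of lower fibroblast genes was 1. Ccn2 and Ccn3 were higher and Ccn5 was lower in the same tumours, and the highest tumour for the fibroblast list, miR-21-KD replicate 1, was also the highest for Ccn4 and the lowest of its group for Ccn2, Ccn3 and Ccn5. All 9 adipocyte genes were higher in miR-21-KD tumours (median 2.59), in each of the 15 alternatives as well, with Plin4, a lipid droplet protein, and Lep, which encodes leptin, at the smallest adjusted p (0.00667 and 0.00680 from edgeR). Their summed level was 128 to 535 CPM in VC tumours, and 758 to 2108 CPM in those with miR-21-KD. The part of either cell type in the values of the members was not tested, nor was that of the cell types that follow.

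Of 10 genes of pericytes and smooth muscle, 6 were higher and 1 lower (median 0.69), among them Cspg4 and Acta2, which rose by 1.41 and 0.63 (adjusted p = 0.00820 and 0.00849 from edgeR), while Mcam fell by 0.64 (adjusted p = 0.0235, lost without miR-21-KD replicate 3 or 4). Their sums were 385 to 538 CPM in VC tumours, and 521 to 732 CPM in those with miR-21-KD. Of 10 endothelial genes, 1 was higher, Tek (1.10, adjusted p = 0.0378, lost without VC replicate 2, 3 or 4 or miR-21-KD replicate 1, 3 or 4), while the blocked fit gave 2 higher and 1 lower, 1 was lower without VC replicate 3 and 2 were higher without VC replicate 1. With all tumours 10% of the endothelial list was called, against 39.1% of all tested genes. The list had a median of -0.01 and sums of 499 to 838 CPM and 705 to 988 CPM. Of 10 leukocyte genes, 7 were higher and 0 lower (median 0.96), led by Flt3 and Cd68 (adjusted p = 0.00663 and 0.0114), with sums of 968 to 1819 CPM and 1779 to 3106 CPM, and without VC replicate 3 the number of higher genes was 3.

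The labelled tissue is carcinoma of mammary epithelium, and of 10 epithelial genes listed for it none was at 0. These genes are not particular to carcinoma cells, so their presence cannot tell carcinoma from normal mammary epithelium. Krt8 and Krt18, the keratins of simple epithelium, had the most reads, with 808 and 1022 CPM in VC and 439 and 460 CPM in miR-21-KD tumours. Krt18 fell (log2 fold change -1.15, adjusted p = 0.0374 from edgeR, lost in 6 alternatives), whereas 8 others rose, led by Krt19 (3.60, adjusted p = 0.00688) and Cldn3 (2.31, adjusted p = 0.0140). The median of the list was 1.72 although its summed level, 1307 to 2266 CPM in VC tumours, and 921 to 2035 CPM in those with miR-21-KD, had the lower mean in miR-21-KD tumours. The number of higher genes was 4 or 5 without VC replicate 2, VC replicate 3, miR-21-KD replicate 1, miR-21-KD replicate 3 or miR-21-KD replicate 4. The number of lower ones was 2 with DESeq2, in the blocked fit and without miR-21-KD replicate 2. Among 6 basal epithelial genes 3 were higher (median 2.26), Krt14 with an adjusted p = 0.0110 and Krt17 with an adjusted p = 0.0230 from edgeR, and this number was 1 without VC replicate 2 or 3 or miR-21-KD replicate 1 or 4 or with limma-voom, and 6 without VC replicate 1 or miR-21-KD replicate 2, with DESeq2 or in the blocked fit. Of 6 skeletal muscle genes 2 could be tested, and Myh1 was lower (4.98 and 0.892 CPM, adjusted p = 0.0209 from edgeR, lost without VC replicate 3 or miR-21-KD replicate 1 or 3). With at least 10 counts required in every tumour the muscle list held 0 lower genes as well. The sum of that list was 2.505 to 10.25 CPM over the 8 tumours. At an unadjusted p under 0.05, edgeR with no block gave 0 lower genes for the fibroblast, adipocyte, endothelial, basal epithelial and leukocyte lists.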

How the data were processed

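RNA of 8 whole 4T1.13 tumours, 4 per group, was sequenced by the study. The deposited table holds raw read counts per gene, made by the authors from reads aligned to mm10; the labels' processing notes name Subread, featureCounts, edgeR and limma, and versions and the annotation used for counting are not given in the sources used here. No normalization had been applied. Of 27179 Entrez identifiers, 25275 matched a symbol in RefSeq (GRCm38.p6).

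The filter on low counts was filterByExpr of edgeR, set to a minimum count of 10 and a total of at least 15. The 14382 genes that passed hold 99.9% of the reads counted. Libraries were scaled by TMM and tested with edgeR's robust quasi-likelihood test, with Benjamini-Hochberg adjustment over all 14382 genes and a threshold of 0.05. Per-tumour log2 CPM used a prior count of 2. R 4.3.3, edgeR 4.0.16, limma 3.58.1, DESeq2 1.42.0, Python 3.11.15 and Biopython 1.88 were used, and the script was tested on simulated data. Totals of 12134849 to 13592695 counts per tumour set the precision.

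The members and lists were chosen with earlier results of these data known. Besides the members and Ccn6, the text names from each list the 2 genes with the smallest adjusted p in each direction and the 3 genes most correlated with each member, and Itgb1, Itgb3, Lrp6, Ankrd1, Krt8 and Itga6 were named after their values were seen. One gene that this rule selects is not reported here. Same-numbered VC and miR-21-KD tumours deviated together (correlations 0.272, 0.421, 0.175 and 0.376), so the numbers were taken as pairing the tumours in an alternative fit. Other combinations had a mean of -0.10. This is no separate baseline, since taking off the group means ties it to the same-numbered values. That the numbers mark a shared day or batch is not stated in the labels. The alternatives were DESeq2, library size alone, upper-quartile scaling, both filters, limma-voom, the replicate block and each tumour left out in turn. Transcript length in place of all exons was added after seeing the data.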

Additional observations from a re-analysis of the deposited data

Results flagged for a closer look

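Of 60 groups of 4 values examined, 3 held a tumour whose gap to the nearest other tumour took more than 0.829 of the group's range, and chance gives about 1 in 20 such groups. Ccn3 had 40.7 CPM in VC replicate 4, above the other VC tumours (gap 0.835 of the range). The summed markers of basal mammary epithelium reached 111 CPM in VC replicate 1 (gap 0.835). The summed endothelial markers reached 988 CPM in miR-21-KD replicate 1 (gap 0.874), the tumour in which Ccn4 was also highest.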

How the results depend on the processing

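No result reversed under the 15 alternatives. The members past the threshold numbered 3 (2 higher, 1 lower) in each, which supports nothing, since the family was chosen with this contrast known. With 1 tumour left out, log2 fold changes ranged from 0.03 to 0.27 for Ccn1, 1.08 to 1.38 for Ccn2, 2.001 to 2.341 for Ccn3, 0.07 to 0.64 for Ccn4 and -1.71 to -1.40 for Ccn5. Counts over all genes ranged from 1449 to 3290 higher, 1487 to 3550 lower and 2936 to 6840 in all, lowest without VC replicate 3 and highest without miR-21-KD replicate 2, against 2826, 2800 and 5626. Over the pathway lists they were 12 to 37 higher (30 with all tumours), 17 to 26 lower (22) and 29 to 63 in all (52), and over the marker lists 25 to 46 higher (42), 0 to 4 lower (3) and 27 to 49 in all (45). With the replicate number as a block, 6485 genes passed (3309 higher, 3176 lower), with 62 in the pathway lists and 53 in the marker lists, and the members' log2 fold changes were 0.15, 1.23, 2.15, 0.34 and -1.54 for Ccn1 to Ccn5. Lower marker genes numbered 5 with the replicate block and 5 with DESeq2, and the cause was not tested. Of 41 named list genes, 30 kept their call in all 15 alternatives. Scaling moved the median of all genes between -0.04 and 0.03. The depth limits Ccn6, whose counts were 6 or fewer.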
